A study of Homo sapiens with 8 samples.

Results

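The sodium-calcium exchanger genes comprise the SLC24 family (SLC24A1 to SLC24A5) and the SLC8 family (SLC8A1 to SLC8A3 and SLC8B1). They were taken by gene symbol from the gene-level counts of H1-derived islet cells and number 9 of the 38592 genes listed. All 9 passed the filter on low counts. SLC24A4 was chosen by its response to an ISL1 vector, measured in these libraries, which differed between genotypes, and the others by family membership alone. The levels and fold changes of SLC24A4 are therefore given as a description with no test, and only the 8 other exchangers were tested. In the cells labelled as an ISL1 knockout, SLC24A4 stood at 0.276 ± 0.066 CPM with the control vector and at 6.27 ± 0.54 CPM with the ISL1 vector (SD, n = 3 each). CPM is the gene's count relative to the scaled library total. In WT cells SLC24A4 stood at 10.5 ± 0.2 CPM and 9.75 ± 2.05 CPM (SD, n = 2 each).

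Sodium-calcium exchangers let sodium flow into the cell along its gradient and use that energy to move calcium outward. The SLC8 proteins SLC8A1, SLC8A2 and SLC8A3 (NCX1, NCX2 and NCX3) exchange sodium for calcium at the plasma membrane, and SLC8B1 (NCLX) does so at the inner mitochondrial membrane. The SLC24 proteins (NCKX) carry potassium out together with calcium. In islet endocrine cells, calcium that enters through voltage-gated channels triggers hormone release, and exchangers, calcium pumps and the sodium-potassium pump restore the resting state.

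The cells were islets differentiated from H1, an established line of human embryonic stem cells. Cells of 4 genotypes were used: those without an edit (WT) and those with a knockout of PDX1, PAX6 or ISL1 (PDX1 KO, PAX6 KO, ISL1 KO). ISL1, PAX6 and PDX1 are homeodomain transcription factors of islet development. On day 11 of differentiation each genotype received either an ISL1-IRES2-BFP vector, labelled ISL1 OE, or a vector with only BFP, a blue fluorescent protein, as the control, and all cells were harvested on day 18. Groups held 3 libraries each, except PDX1 KO ISL1 OE and both WT groups with 2 each, which makes 21 libraries in 8 groups. All groups share the H1 background and a BFP vector. The labels do not say whether a knockout line is 1 clone or several, nor what promoter drives the vector. The series describes the replicates as biological.

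Library totals ranged from 40959467 to 66818614 counts. ISL1 RNA itself did not separate the vectors: it was 384 ± 141 CPM in WT BFP and 320 ± 9 CPM in WT ISL1 OE, and 67.5 ± 3.9 CPM in ISL1 KO BFP and 72.9 ± 11.2 CPM in ISL1 KO ISL1 OE (SD, n = 2, 2, 3 and 3). The label ISL1 OE is therefore not borne out by ISL1 RNA, and every direction attributed to the vector below rests on the label. PDX1 RNA was 100.5 ± 6.4 CPM in PDX1 KO BFP and 84.5 ± 14.9 CPM in WT BFP (SD, n = 3 and 2). PAX6 RNA was 132 ± 31 CPM in PAX6 KO BFP and 189 ± 65 CPM in WT BFP (SD, n = 3 and 2). RNA of the edited gene was thus present in each knockout, and the knockouts also rest on their labels. The lowest correlation within a group, across genes, was 0.927 in PAX6 KO ISL1 OE and 0.9 in PDX1 KO ISL1 OE. It was at least 0.982 in the other groups. PAX6 KO ISL1 OE replicate 3 and PDX1 KO ISL1 OE replicate 4 were taken as the libraries that stood apart. With 2 libraries in PDX1 KO ISL1 OE, their correlation cannot show which of them departs, so replicate 4 was a choice. Over fits that each left out 1 library, the SLC8A1 vector effect in PDX1 KO ranged from -3.52 to -1.13 (log2). Results are therefore also given without these 2 libraries. PDX1 KO ISL1 OE then keeps only replicate 2, so every PDX1 KO result with the vector in that fit rests on 1 library in this arm, which is assumed to vary like the other groups. WT BFP replicate 1, ISL1 KO BFP replicate 1, both first replicates of PAX6 KO and PDX1 KO BFP replicate 3 were read on lanes 5 to 8 and the other 16 libraries on lanes 1 to 4. On lanes 1 to 4 alone WT BFP keeps 1 library.

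The promoters of the 3 exchangers on which the results turn are shown first, as the 250 bases before the RefSeq start on the coding strand (GRCh38.p14). Capitals mark TAAT or its reverse complement ATTA, the core that many homeodomain proteins bind. RefSeq lists 13 such starts for 8 of the exchangers. SLC24A3 is not among them.
SLC24A4 (chr14:92322331-92322580, plus strand): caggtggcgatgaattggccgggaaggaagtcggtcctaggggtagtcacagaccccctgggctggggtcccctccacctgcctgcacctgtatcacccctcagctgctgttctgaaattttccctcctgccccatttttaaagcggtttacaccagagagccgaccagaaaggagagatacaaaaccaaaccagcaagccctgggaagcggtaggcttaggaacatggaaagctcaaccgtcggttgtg
SLC8A3 (chr14:70188952-70189201, minus strand): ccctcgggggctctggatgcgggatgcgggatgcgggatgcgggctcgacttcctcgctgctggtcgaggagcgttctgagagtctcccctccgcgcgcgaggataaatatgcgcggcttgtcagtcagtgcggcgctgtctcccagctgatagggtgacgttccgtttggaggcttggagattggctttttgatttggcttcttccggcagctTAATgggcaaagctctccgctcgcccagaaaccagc
SLC8A1, start nearest its main transcript (chr2:40452091-40452340, minus strand): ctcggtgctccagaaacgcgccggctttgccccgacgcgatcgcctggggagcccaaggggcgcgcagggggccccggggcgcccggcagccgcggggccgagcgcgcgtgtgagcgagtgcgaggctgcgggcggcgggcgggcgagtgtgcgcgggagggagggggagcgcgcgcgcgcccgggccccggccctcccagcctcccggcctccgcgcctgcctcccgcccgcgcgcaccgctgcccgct
SLC8A1, start within the gene (chr2:40430305-40430554, minus strand): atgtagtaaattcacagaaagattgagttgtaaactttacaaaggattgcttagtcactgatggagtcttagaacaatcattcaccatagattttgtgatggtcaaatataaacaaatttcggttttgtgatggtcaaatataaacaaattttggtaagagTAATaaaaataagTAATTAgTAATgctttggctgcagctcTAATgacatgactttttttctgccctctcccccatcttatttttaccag
The SLC24A4 window held no TAAT or ATTA, the SLC8A3 window shown 1, and the SLC8A1 windows shown 0 and 5, of which 2 overlap. Another SLC8A1 window, farther before the gene's main start, held 0 and another SLC8A3 window held 1, with GC contents of 44.8% and 48.4%, and these are not printed. At least 1 match, on either strand, was found in 6 of the 13 exchanger windows and in 47.4% of the 35116 windows of this length in RefSeq. GC content was 56.0% for SLC24A4, 61.2% for SLC8A3, and 83.2% and 32.0% for the SLC8A1 windows shown, against a median of 58.0% over all windows. These letters describe the windows and identify no binding site.

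SLC24A4 (NCKX4), which is known from olfactory neurons and from enamel-forming cells, is encoded at chromosome 14, 92322581 to 92501483, plus strand (GRCh38, ENSG00000140090). No other gene in GENCODE 29 overlaps it. Its levels were 10.4 and 10.6 CPM in WT BFP and 11.2 and 8.30 CPM in WT ISL1 OE. In ISL1 KO BFP they were 0.323, 0.305 and 0.201 CPM, from 20, 19 and 14 counts. In ISL1 KO ISL1 OE they were 6.09, 5.84 and 6.87 CPM, from 367, 387 and 415 counts. The vector groups of ISL1 KO did not overlap, and their means differed 22.7-fold, a log2 fold change of 4.50 ± 0.43 (SE of the fit). In the other genotypes the vector groups overlapped, with log2 fold changes of -0.11 ± 0.43 in WT, 0.02 ± 0.38 in PAX6 KO and -0.08 ± 0.40 in PDX1 KO. The PAX6 KO value was 0.71 without PAX6 KO BFP replicate 1, the highest library of its group. Over the fits that left out 1 library, the PDX1 KO value ranged from -0.61 to 0.37. In bulk RNA, fewer cells that express a gene and less of its RNA per cell cannot be told apart, here and in all results below.

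PAX6 KO held little SLC24A4 with either vector: 1.69, 0.728 and 0.452 CPM with BFP and 1.17, 0.906 and 0.816 CPM with the label ISL1 OE. PDX1 KO was intermediate, with 5.98, 4.595 and 5.04 CPM with BFP and 6.57 and 3.22 CPM with ISL1 OE, the lower of these in the library that stood apart. With the control vector, mean SLC24A4 was 38.0-fold lower in ISL1 KO than in WT, 11.0-fold lower in PAX6 KO and 2.02-fold lower in PDX1 KO, and none of these groups overlapped WT. On the log2 scale of the fit these differences were -5.24 ± 0.45, -3.46 ± 0.42 and -1.01 ± 0.39. Without PAX6 KO BFP replicate 1 the PAX6 KO difference was -4.15. Between the ISL1 OE groups the differences from WT were -0.64 ± 0.39, -3.34 ± 0.41 and -0.99 ± 0.44, so the ISL1 KO cells with the vector stood 1.56-fold below WT with the vector. The order of the group means ran from WT BFP and WT ISL1 OE, which overlapped, through ISL1 KO ISL1 OE, PDX1 KO BFP and PDX1 KO ISL1 OE, which overlapped one another, to both PAX6 KO groups, which overlapped, and last ISL1 KO BFP, which overlapped no other group.

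**Figure D1:**
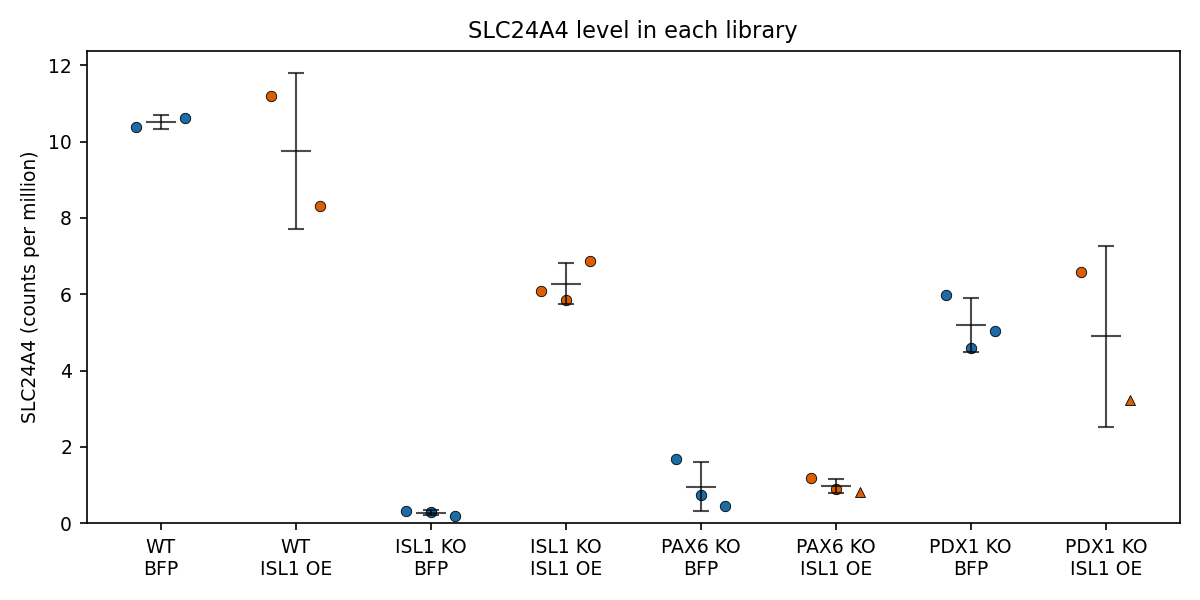
SLC24A4 level in CPM (y axis) in each of the 21 libraries, by group (x axis; blue, BFP; orange, labelled ISL1 OE), with the mean and SD of each group as a bar; triangles are the 2 libraries that stood apart. ISL1 KO BFP lies between 0.201 and 0.323 CPM and ISL1 KO ISL1 OE between 5.84 and 6.87 CPM, while within WT, PAX6 KO and PDX1 KO the vectors overlap.

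The difference between the vector effects was 4.61 ± 0.61 on the log2 scale for ISL1 KO minus WT, -4.48 ± 0.56 for PAX6 KO minus ISL1 KO and -4.58 ± 0.59 for PDX1 KO minus ISL1 KO. These are the contrasts for which SLC24A4 was singled out, and nothing further is read from them.

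Counts assigned to single transcripts come from the same reads as the gene sum. SLC24A4-205, a protein-coding transcript whose start at 92323605 lies 1024 bases inside the gene, held 58.3% of SLC24A4 counts over all libraries, and SLC24A4-204 held 13.7%. The transcript that begins at the RefSeq start shown above held 3.71%, so the printed window lies before a start that few of the counts were assigned to. Counts of SLC24A4-205 ranged from 1 to 14 in ISL1 KO BFP and from 223 to 257 in ISL1 KO ISL1 OE. They ranged from 194 to 251 in WT BFP, from 22 to 60 in PAX6 KO BFP and from 171 to 188 in PDX1 KO BFP. The neighbouring protein-coding genes did not share this pattern. CPSF2, a subunit of the mRNA 3′ end cleavage machinery that lies 150436 bases before SLC24A4, was at 68.4 ± 7.0 CPM in ISL1 KO BFP and 66.0 ± 4.1 CPM in ISL1 KO ISL1 OE (SD, n = 3 each). RIN3, a regulator of endosomal RAB5 that lies 12291 bases after it, was at 2.23 ± 0.63 CPM and 2.17 ± 0.32 CPM in the same groups.

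The genes whose pattern was most like that of SLC24A4, by Pearson correlation of log2 CPM over the 21 libraries among 15687 genes, were C3orf80 (r = 0.889), BCKDHB (0.853), SLC30A8 (0.851), GCG (0.848) and VEGFC (0.843). BCKDHB is a subunit of the branched-chain keto acid dehydrogenase, SLC30A8 the zinc transporter of insulin granules, GCG encodes glucagon and VEGFC is a lymphatic growth factor. Libraries of a group share genotype and vector, so the points are not independent. GCG was at 41070 CPM in WT BFP, 80.5 CPM in ISL1 KO BFP and 3216 CPM in ISL1 KO ISL1 OE. SLC30A8 was at 378 (WT BFP), 54.3 (ISL1 KO BFP) and 107 CPM (ISL1 KO ISL1 OE) in the same order. VEGFC was at 13.6, 0.85 and 2.35 CPM. Among the exchangers compared SLC8A3 came closest, with r = 0.558 at rank 296, and SLC24A1 (0.252), SLC8B1 (0.213), SLC24A3 (-0.06) and SLC8A1 (-0.18) lay further away. The ranking took only genes with a mean log2 CPM of at least 0. SLC24A2, SLC24A5 and SLC8A2 lay below that and were not compared.

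**Figure D2:**
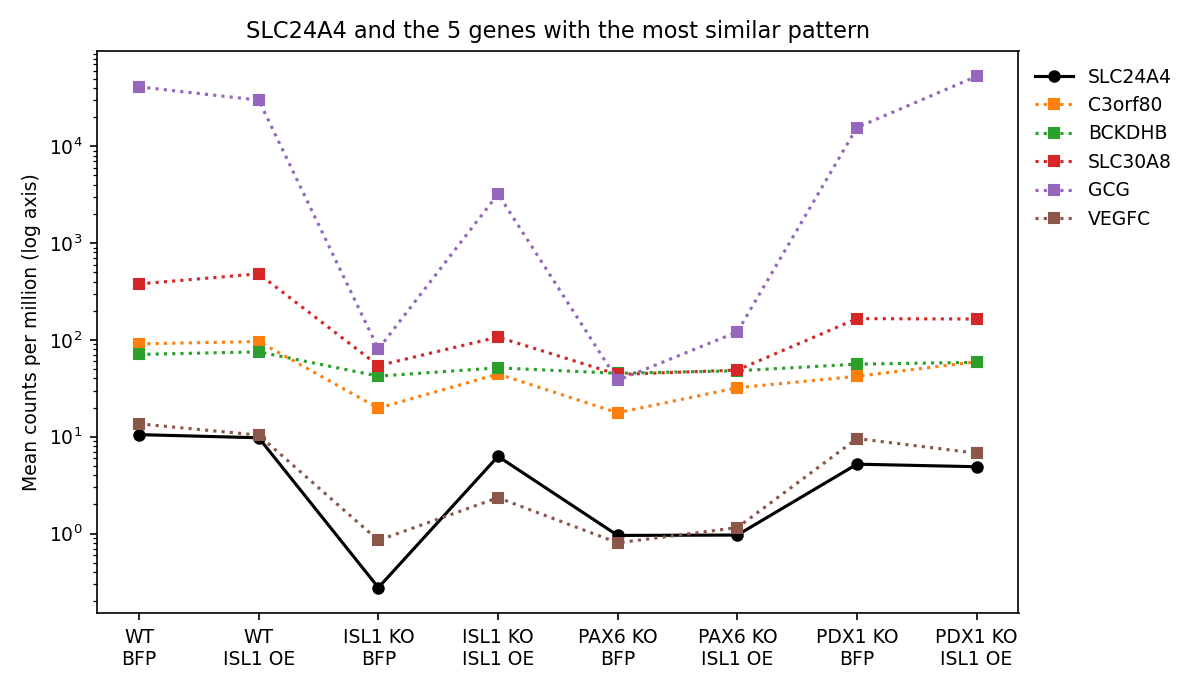
Mean CPM (log y axis) of SLC24A4 (black) and of the 5 genes most similar to it in each of the 8 groups (x axis); lines only guide the eye. SLC24A4 is at 0.276 CPM in ISL1 KO BFP and 6.27 CPM in ISL1 KO ISL1 OE, and GCG at 80.5 and 3216 CPM.

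Level per length, in TPM, which scales for transcript length and library total, put SLC24A3 first among the exchangers by group mean in every group. SLC24A3 (NCKX3) is a broadly expressed potassium-dependent exchanger. Its group means ranged from 7.34 TPM in WT BFP to 25.7 TPM in PDX1 KO BFP, and it made up 33.0% to 39.6% of the summed TPM of the 9 genes in WT BFP and 62.6% to 63.6% in ISL1 KO BFP. The mitochondrial SLC8B1 had group means between 2.51 and 5.39 TPM and SLC8A1 between 1.21 and 6.67 TPM. SLC24A4 ranged from 0.0318 to 3.82 TPM over libraries. SLC24A2 (at most 0.615 TPM), SLC8A2 (at most 0.687 TPM) and SLC24A5 (at most 0.604 TPM) were the lowest. The sum of all 9 was 20.04 TPM in WT BFP, 28.3 in ISL1 KO BFP, 28.4 in PAX6 KO BFP and 42.8 in PDX1 KO BFP.

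**Figure D3:**
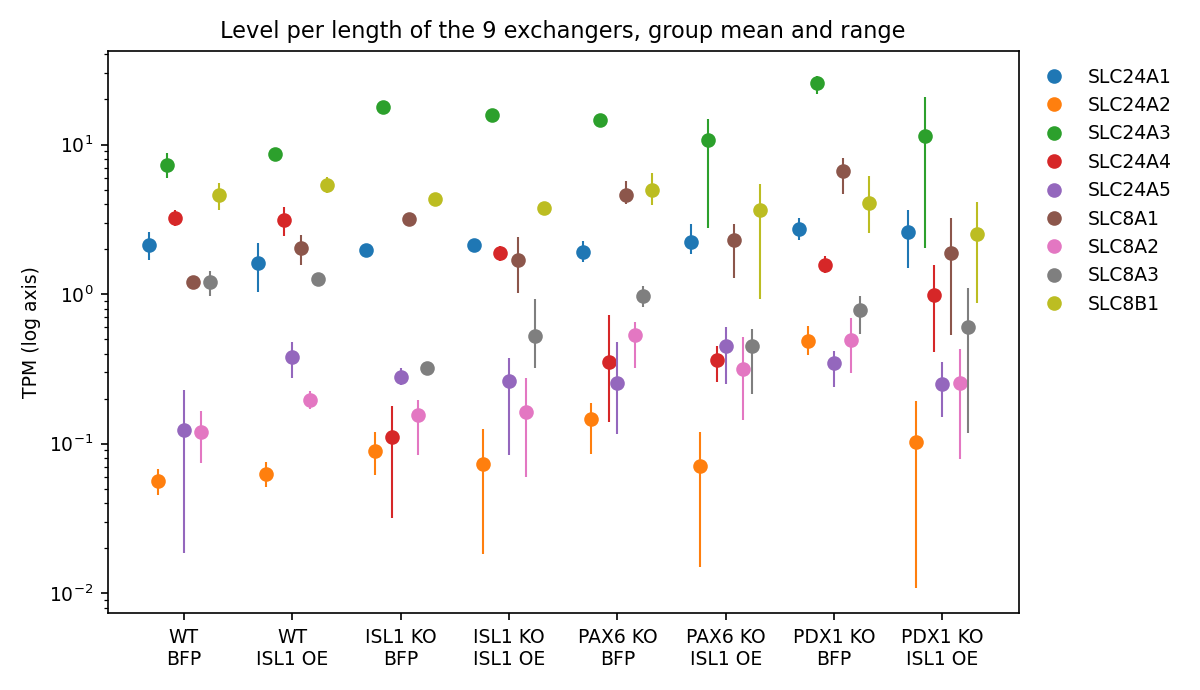
TPM (log y axis) of each of the 9 exchangers in the 8 groups (x axis), as the group mean (point) and the range over its 2 or 3 libraries (line). SLC24A3 is highest in each group, and SLC24A4 falls from 3.25 TPM in WT BFP to 0.111 TPM in ISL1 KO BFP.

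Of the plasma membrane exchangers, SLC8A1 (NCX1), the main exchanger of heart muscle, rose in PDX1 KO with the control vector. Its levels were 5.88 and 5.80 CPM in WT BFP, 11.6, 12.8 and 13.6 CPM in ISL1 KO BFP, 20.2, 15.5 and 15.4 CPM in PAX6 KO BFP and 30.2, 22.4 and 33.1 CPM in PDX1 KO BFP. No knockout group overlapped WT. The difference passed the test in PDX1 KO (log2 fold change 2.29 ± 0.53, adjusted p = 0.00987, edgeR quasi-likelihood test with Benjamini-Hochberg adjustment over 22184 genes). This call was lost without WT BFP replicate 1 or 3 (adjusted p up to 0.0947) and on lanes 1 to 4 alone (2.19, adjusted p = 0.360). It did not pass in ISL1 KO (1.12 ± 0.50, adjusted p = 0.218) or PAX6 KO (1.55 ± 0.51, adjusted p = 0.0823), where it passed without the 2 libraries that stood apart (1.11, adjusted p = 0.00465, and 1.56, adjusted p = 0.000364).

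With the vector labelled ISL1 OE, SLC8A1 was at 3.999, 6.48 and 8.63 CPM in ISL1 KO, 10.6, 9.60 and 4.61 CPM in PAX6 KO, 12.7 and 2.35 CPM in PDX1 KO and 10.7 and 7.87 CPM in WT. Within each knockout these values lay below all control-vector values of the same genotype, and within WT they lay above them. The fall passed the test in PDX1 KO (log2 fold change -1.92 ± 0.52, adjusted p = 0.0226), and without the 2 libraries that stood apart it was -1.14 (adjusted p = 0.0363, with 1 library left in the ISL1 OE arm). In ISL1 KO the log2 fold change was -0.99 ± 0.44 (adjusted p = 0.553), or -0.98 without those libraries (adjusted p = 0.0159). In PAX6 KO it was -1.05 ± 0.44 (adjusted p = 0.403). The PDX1 KO call was lost on lanes 1 to 4 alone (-1.80, adjusted p = 0.173), when libraries were scaled by size alone (-1.93, adjusted p = 0.0537), when only the 2 groups entered the fit (-1.90, adjusted p = 0.313), and without PDX1 KO BFP replicate 1 or 3 or PDX1 KO ISL1 OE replicate 4, where it was lowest at -1.13. The vector effect in PDX1 KO minus that in WT was -2.59 ± 0.74 (adjusted p = 0.0892), and -1.82 without the 2 libraries (adjusted p = 0.0279), again with 1 library in that arm.

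SLC8A2 (NCX2), a mainly neuronal exchanger, was at 0.318 and 0.192 CPM in WT BFP, from 16 and 7 counts. In PAX6 KO BFP it was at 1.35, 0.841 and 1.46 CPM and in PDX1 KO BFP at 1.21, 0.630 and 1.34 CPM, while ISL1 KO BFP lay at 0.210 to 0.330 CPM and overlapped WT. SLC8A2 rose in PAX6 KO (log2 fold change 2.23 ± 0.63, adjusted p = 0.0437) and in PDX1 KO (2.02 ± 0.63, adjusted p = 0.0470). Both calls lie near the threshold, and each was lost in 12 of the 21 fits that left out 1 library. With the replicate number as a block, which covered ISL1 KO and PAX6 KO alone, the PDX1 KO value was 2.02 (adjusted p = 0.0558). The PAX6 KO value there, 2.48 (adjusted p = 0.0917), sets the level at replicate 1 against WT and is not the same difference.

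SLC8A3 (NCX3), known from brain and skeletal muscle, fell in ISL1 KO with BFP, the only call there among the 8 tested exchangers. It stood at 3.51 and 5.41 CPM in WT BFP and at 0.889, 0.818 and 0.961 CPM in ISL1 KO BFP, and these groups did not overlap. The fall passed the test (log2 fold change -2.32 ± 0.48, adjusted p = 0.00799), but not without WT BFP replicate 3, the library with the higher WT value, where it was -1.98. The call was also lost in the limma fit on TPM, which called 0 of 8 exchangers in this comparison. It was lost on lanes 1 to 4 alone as well, where WT BFP keeps 1 library. Unlike SLC24A4, SLC8A3 overlapped between the vectors in ISL1 KO, where the ISL1 OE libraries had 0.846, 0.906 and 2.34 CPM. PAX6 KO BFP had 3.08, 2.05 and 2.71 CPM and PDX1 KO BFP 1.999, 1.72 and 2.28 CPM, all below both WT BFP values.

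Between the ISL1 OE groups SLC8A3 fell in PAX6 KO, from 4.54 and 3.92 CPM in WT to 1.34, 1.27 and 0.798 CPM (log2 fold change -1.89 ± 0.48, adjusted p = 0.0320). With the replicate number as a block, where the PAX6 KO level is taken at replicate 1, this was -1.66 (adjusted p = 0.210). With only the 2 groups in the fit it was -1.86 (adjusted p = 0.154). It was also lost when any 1 library of these 2 groups was left out, with adjusted p up to 0.204, yet it passed when both libraries that stood apart were left out (-1.68, adjusted p = 0.00799). In ISL1 KO the difference was -1.63 ± 0.48 (adjusted p = 0.0630), and it passed without the 2 libraries that stood apart (-1.64, adjusted p = 0.00281).

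**Figure D4:**
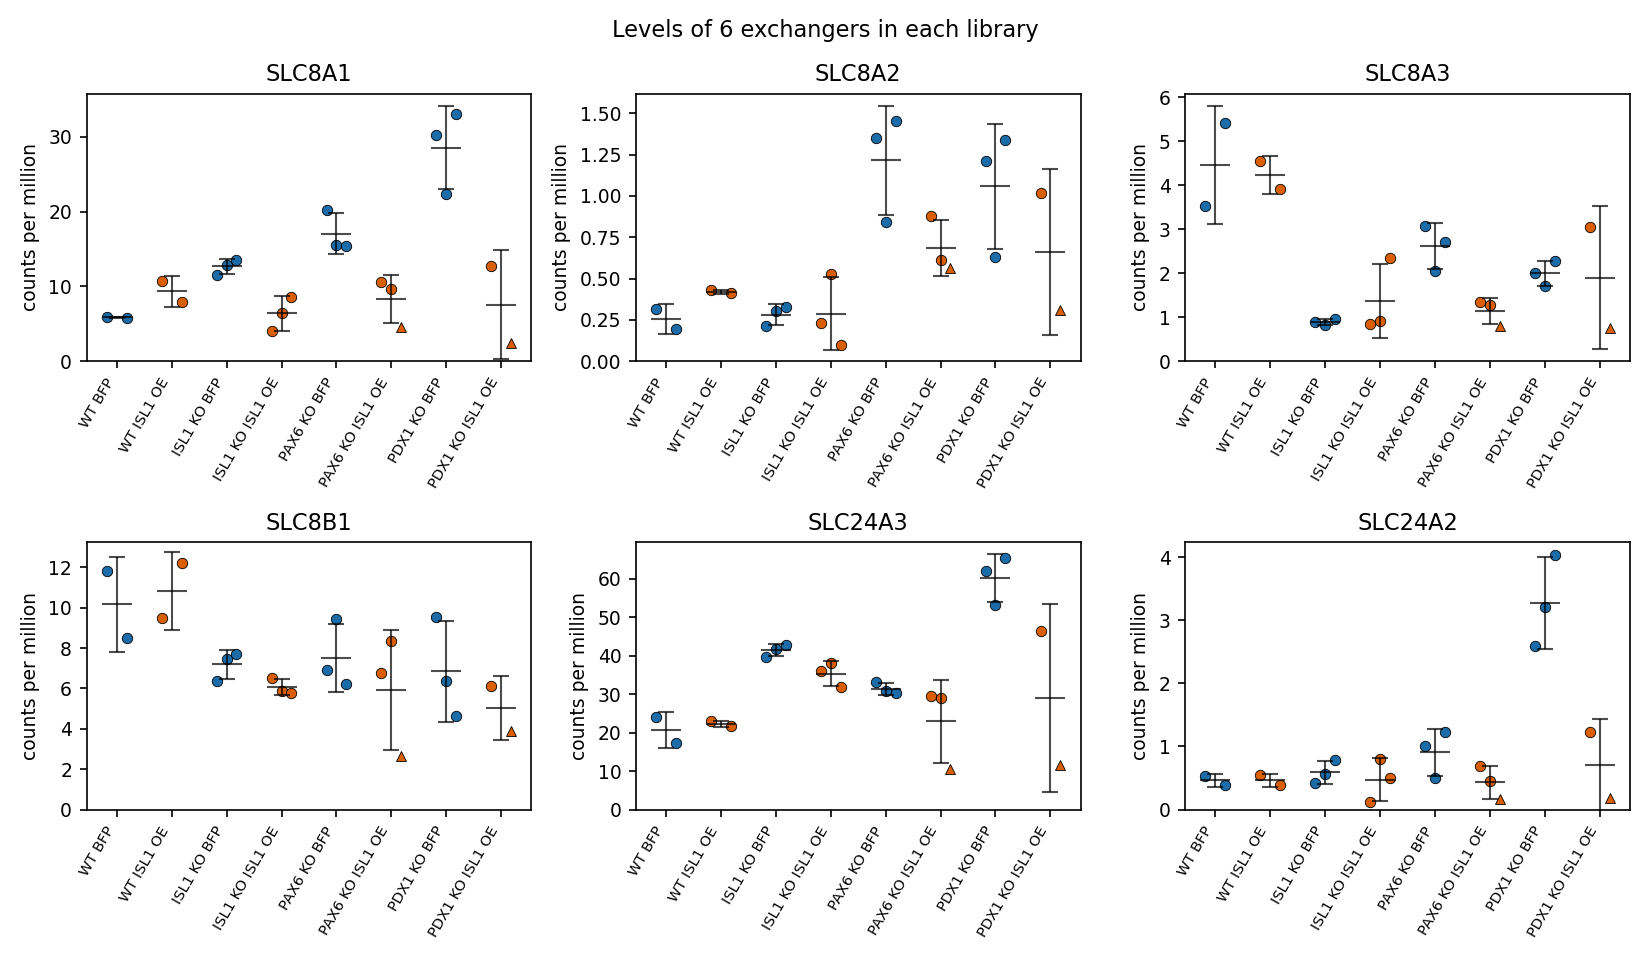
CPM (y axes, each from 0) of 6 exchangers in every library by group (x axes; blue, BFP; orange, labelled ISL1 OE), with group mean and SD; triangles are the 2 libraries that stood apart. SLC8A1 and SLC24A3 are highest in PDX1 KO BFP, at 28.6 and 60.1 CPM on average, and SLC8A3 is lowest in ISL1 KO BFP, at 0.890 CPM.

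SLC24A3, the exchanger with the highest level per length, also rose in PDX1 KO with the control vector. It stood at 24.04 and 17.3 CPM in WT BFP, 39.7, 41.7 and 42.8 CPM in ISL1 KO BFP, 33.1, 30.7 and 30.2 CPM in PAX6 KO BFP and 61.9, 53.2 and 65.3 CPM in PDX1 KO BFP. No knockout group overlapped WT. The difference passed the test in PDX1 KO (log2 fold change 1.54 ± 0.45, adjusted p = 0.0343), though not when WT BFP replicate 1 or 3 or any PDX1 KO BFP library was left out. It also did not pass in the fit with the replicate number as a block (1.54, adjusted p = 0.0513), which held no block term for PDX1 KO or WT. The differences in ISL1 KO (1.001 ± 0.438, adjusted p = 0.201) and PAX6 KO (0.60 ± 0.43, adjusted p = 0.499) passed without the 2 libraries that stood apart (0.99, adjusted p = 5.45e-05, and 0.61, adjusted p = 0.00257). In those 2 libraries SLC24A3 was at 10.5 and 11.7 CPM, against 29.4 and 28.97 CPM and 46.3 CPM in the other libraries of their groups.

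SLC24A2 (NCKX2), known from cone photoreceptors and neurons, was at 0.536 and 0.385 CPM in WT BFP, from 27 and 14 counts, and at 2.59, 3.21 and 4.04 CPM in PDX1 KO BFP, from 141, 204 and 202 counts. The highest library outside PDX1 KO had 1.22 CPM. SLC24A2 rose in PDX1 KO (log2 fold change 2.82 ± 0.79, adjusted p = 0.0287), with the call lost without either WT BFP library or without PDX1 KO BFP replicate 2 or 3 (adjusted p up to 0.187). With the vector labelled ISL1 OE the PDX1 KO libraries had 1.23 and 0.179 CPM, a log2 fold change of -2.18 ± 0.75 (adjusted p = 0.0599).

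The remaining exchangers passed no test in the main fit. SLC8B1, the mitochondrial exchanger, ranged from 2.63 to 12.2 CPM over the libraries. With the control vector it was at 11.8 and 8.51 CPM in WT and at 6.37, 7.48 and 7.73 CPM in ISL1 KO, which did not overlap (log2 fold change -0.50 ± 0.38, adjusted p = 0.516). Its difference from WT between the ISL1 OE groups was -0.84 ± 0.38 in ISL1 KO (adjusted p = 0.254), -0.87 ± 0.38 in PAX6 KO (adjusted p = 0.233) and -1.11 ± 0.43 in PDX1 KO (adjusted p = 0.274). SLC24A1 (NCKX1), the exchanger of rod photoreceptors, ranged from 1.88 to 3.68 CPM over the libraries. Between the ISL1 OE groups its means were 1.475-, 1.24- and 1.52-fold above WT in ISL1, PAX6 and PDX1 KO, without overlap. These differences did not pass the edgeR test (adjusted p = 0.17, 0.48 and 0.27). Its vector groups did not overlap in WT, where it was lower with ISL1 OE, or in ISL1 KO, where it was higher. SLC24A5 (NCKX5), which acts in the pigment granules of melanocytes, never exceeded 1.02 CPM or 56 counts. The melanocyte and photoreceptor marker lists were also low, summing to at most 1.18 CPM and 31.0 CPM in any library.

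Counted over comparisons, the 8 tested exchangers gave 6 calls in 24 tests of knockout against WT with the control vector. In ISL1 KO 1 of 8 was called (SLC8A3, lower), where 6.53% of all genes were called. In PAX6 KO 1 of 8 was called (SLC8A2, higher), against 6.65%, and in PDX1 KO 4 of 8 (SLC24A2, SLC24A3, SLC8A1 and SLC8A2, all higher), against 11.4%. In the direction of these calls the shares of all genes were 4.48%, 2.41% and 4.56%. Without the 2 libraries that stood apart, the counts were 3, 3 and 5 of 8, against 28.5%, 28.8% and 33.3% of all genes. Between the ISL1 OE groups 1 of 8 was called in PAX6 KO (SLC8A3, lower; 4.26% of all genes, and 2.88% lower) and 0 of 8 in ISL1 KO (4.13%) and PDX1 KO (0.78%). edgeR gave 3 of 8 an unadjusted p under 0.05 in each of these last comparisons, and DESeq2 called 2 and 0. Without the 2 libraries that stood apart 4 of 8 were called in ISL1 KO (23.7% of all genes) 1 of 8 in PAX6 KO (14.5%) and 1 of 8 in PDX1 KO (7.9%).

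The vector effect was called for 1 of 8 exchangers in PDX1 KO (SLC8A1, lower; 14.4% of all genes, and 5.34% lower) and for 0 of 8 in WT (0.0361%), ISL1 KO (0.424%) and PAX6 KO (0.415%). By edgeR the last 3 had 0, 1 and 2 exchangers with an unadjusted p under 0.05, and DESeq2 called none of the 8 there. Without the 2 libraries that stood apart 1 of 8 was called in ISL1 KO (5.92% of all genes) and 1 of 8 in PDX1 KO (11.2%). None of the 48 differences between vector effects was called by edgeR, with 5 at an unadjusted p under 0.05 and 1 called by DESeq2 (SLC8A1 in PDX1 KO minus WT, -2.56, adjusted p = 0.0119). Over all genes these 6 differences had 0.00451% called for ISL1 KO minus WT, 0% for PAX6 KO minus WT, 1.37% for PDX1 KO minus WT, 0.00451% for PAX6 KO minus ISL1 KO, 0.523% for PDX1 KO minus ISL1 KO and 0.329% for PDX1 KO minus PAX6 KO. Without the 2 libraries 1 of 8 was called for PDX1 KO minus WT, where 3.28% of all genes were. Comparisons with the same control group share its libraries: both WT BFP libraries enter every knockout comparison with that vector.

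**Figure D5:**
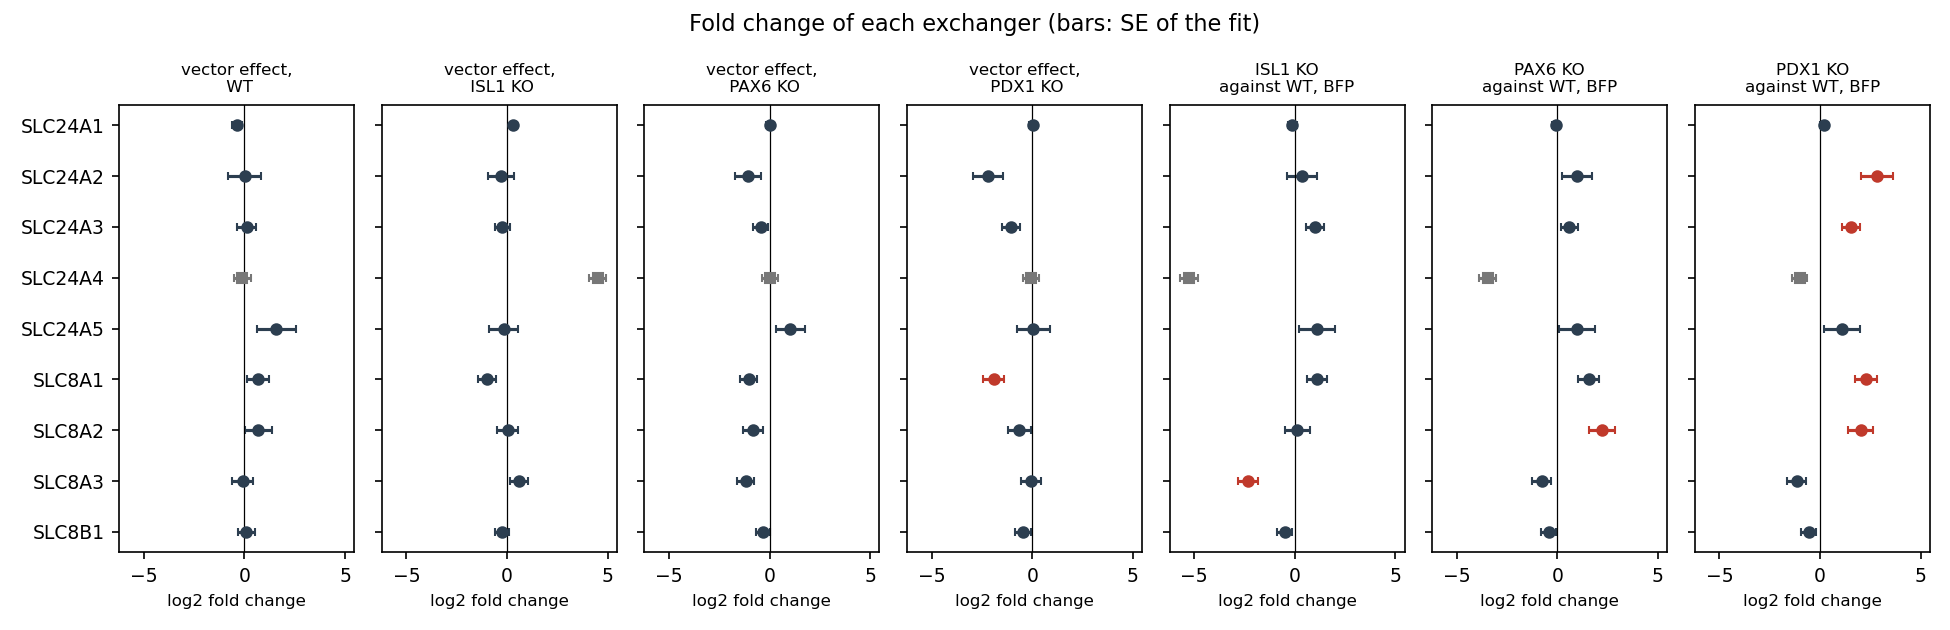
Log2 fold change (x axes) with the SE of the fit for each exchanger (y axis) in the 4 vector effects (ISL1 OE against BFP) and the 3 knockout comparisons with BFP. Red points passed the adjusted p threshold of 0.05, dark points did not, and grey squares are SLC24A4, which was not tested; in ISL1 KO it moved by 4.50 with the vector and stood -5.24 from WT with BFP.

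Other genes that move calcium and sodium were read from lists of pumps, channels and exchangers. Of the 4 plasma membrane calcium pumps, ATP2B3, a mainly neuronal pump, rose in all 3 knockouts with the control vector, with log2 fold changes of 1.57 ± 0.39 in ISL1 KO (adjusted p = 0.0233), 1.87 ± 0.39 in PAX6 KO (adjusted p = 0.00996) and 1.94 ± 0.39 in PDX1 KO (adjusted p = 0.00445). All 3 ATP2B3 calls were lost without WT BFP replicate 1, which enters each of these comparisons. ATP2B2 fell in ISL1 KO (-2.28 ± 0.45, adjusted p = 0.00570). The median of these 4 genes was 0.23 for ISL1 KO, 0.64 for PAX6 KO and 0.39 for PDX1 KO, against medians of 0.03, 0.00404 and 0.02 over all genes. None of the 5 ER and Golgi calcium pumps was called by edgeR in a knockout or vector comparison (with 2 at an unadjusted p under 0.05 and 1 called by DESeq2, both for the vector in PAX6 KO). Without the 2 libraries that stood apart 1, 1 and 2 of 5 rose in ISL1, PAX6 and PDX1 KO with BFP, where 28.5%, 28.8% and 33.3% of all genes were called. For the vector in PAX6 KO that fit called 1 of 5 higher and 1 lower, against 6.02% of all genes.

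Of the 13 genes of the sodium-potassium pump, which builds the sodium gradient the exchangers use, 2 fell in each knockout with BFP, where 4.48%, 4.25% and 6.84% of all genes fell in ISL1, PAX6 and PDX1 KO. The number called ranged from 0 to 2, 0 to 6 and 1 to 3 over the fits that left out 1 library. The FXYD proteins, small regulators of this pump, made up most of these: FXYD3 fell in ISL1 KO (-2.39 ± 0.66, adjusted p = 0.0403), PAX6 KO (-2.79 ± 0.67, adjusted p = 0.0199) and PDX1 KO (-3.09 ± 0.68, adjusted p = 0.00687), and FXYD5 in ISL1 KO (-2.89 ± 0.77, adjusted p = 0.0341) and PDX1 KO (-3.26 ± 0.79, adjusted p = 0.0127). ATP1B1, a beta subunit of the pump, fell in PAX6 KO (-0.79 ± 0.21, adjusted p = 0.0339). Without the 2 libraries that stood apart, 6, 5 and 6 of 12 tested genes fell and 0, 2 and 1 rose, against 28.5%, 28.8% and 33.3% of all genes called in either direction. Of 9 voltage-gated calcium channel pores tested, CACNA1B rose in ISL1 KO (1.90 ± 0.54, adjusted p = 0.0432) and PDX1 KO (2.44 ± 0.55, adjusted p = 0.00852). Of 11 genes of ER calcium release and store-operated entry, ITPR2, an inositol trisphosphate receptor, rose in PDX1 KO (1.11 ± 0.20, adjusted p = 0.00234) and fell there with the vector (-1.09 ± 0.20, adjusted p = 0.00316). Of 12 mitochondrial calcium genes, TMEM65 fell in PDX1 KO (-1.46 ± 0.23, adjusted p = 0.000822) and VDAC1, a channel of the outer membrane, in PAX6 KO (-0.72 ± 0.21, adjusted p = 0.0463). With BFP, 6.53%, 6.65% and 11.4% of all genes were called in ISL1, PAX6 and PDX1 KO. Without the 2 libraries that stood apart, with the shares given above, 2, 5 and 4 of 9 pores rose and 0 fell. Of 11 ER genes 3, 3 and 6 rose and 3, 2 and 0 fell. Of 12 mitochondrial genes 0, 0 and 1 rose and 4, 3 and 4 fell. Of the 15 calls of these lists in knockouts with BFP, 3 held in each of the 21 fits that left out 1 library: ATP2B2 in ISL1 KO and FXYD3 and TMEM65 in PDX1 KO. The other 12 were lost in 1 to 18 of those fits, VDAC1 in 18, FXYD3 in ISL1 KO in 16, CACNA1B in ISL1 KO in 13 and ATP1B1 in PAX6 KO in 10, and on lanes 1 to 4 alone all 15 were lost. None of the 11 sodium-proton exchangers was called by edgeR in a knockout with BFP (3 at an unadjusted p under 0.05 in each, and 3, 2 and 1 called by DESeq2), where 3, 4 and 3 were called without the 2 libraries that stood apart, against 28.5%, 28.8% and 33.3% of all genes.

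With the vector in PDX1 KO, where 14.4% of all genes were called, 11 genes of these lists were called. By list they were 3 of 13 for the sodium-potassium pump, 2 of 12 mitochondrial genes and 2 of 11 for ER release and entry. The rest were 1 of 9 channel pores and 3 of 11 sodium-proton exchangers, with 0 of 4 and 0 of 5 calcium pumps. Of the 11, ITPR2 and TMEM65 (1.18 ± 0.23, adjusted p = 0.00359) held in each of the 21 fits that left out 1 library. The vector effect of TMEM65 in PDX1 KO minus that in WT was 1.49 ± 0.34 (adjusted p = 0.0378), lost in 9 of those fits. FXYD3 (3.85 ± 0.69, adjusted p = 0.00264) and FXYD5 (3.69 ± 0.79, adjusted p = 0.00723) rose in the same comparison, but without PDX1 KO ISL1 OE replicate 4 they were at 0.65 and 0.68 and did not pass. Without both libraries that stood apart FXYD3 passed at 0.64 (adjusted p = 0.0245). ATP1B1 rose (0.82 ± 0.21, adjusted p = 0.0190), and CACNA1B (-1.83 ± 0.53, adjusted p = 0.0311) and ORAI2, a store-operated channel (-0.94 ± 0.25, adjusted p = 0.0218), fell. These 3 calls were also lost without that library, at 0.32, -1.04 and -0.43. The remaining 4 were MCUR1 and the sodium-proton exchangers SLC9A4, SLC9A7 and SLC9B2, each lost in 3 to 17 of those fits. On lanes 1 to 4 alone all 11 were lost. Between the ISL1 OE groups FXYD2, another regulator of the sodium-potassium pump, fell in ISL1 KO (-2.93 ± 0.58, adjusted p = 0.00837), and ITPR2 fell in ISL1 KO (-0.79 ± 0.19, adjusted p = 0.0284) and PAX6 KO (-0.84 ± 0.19, adjusted p = 0.0192).

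Markers of other cell types moved with some of these results. The summed level of 5 enterochromaffin-like markers (TPH1, FEV, DDC, SLC18A1 and LMX1A, none at 0 in any group) was 782 to 907 CPM in WT BFP, 2057 to 2744 in ISL1 KO BFP, 1207 to 1903 in PAX6 KO BFP and 3301 to 3813 in PDX1 KO BFP. With the vector labelled ISL1 OE it was 507 to 531 CPM in WT, 914 to 1178 CPM in ISL1 KO, 537 to 1103 CPM in PAX6 KO and 1181 to 1243 CPM in PDX1 KO. In WT the sum was thus lower with the vector, while SLC8A1 was higher. SLC8A1 and SLC24A3 were highest in PDX1 KO BFP, as was this sum, and the part of these cells in their levels was not tested. The 8 islet endocrine markers summed to 65820 to 81530 CPM in WT BFP, 26850 to 34400 in ISL1 KO BFP and 18190 to 28480 in ISL1 KO ISL1 OE. The sums of the last 2 groups overlapped, while GCG, which is one of the 8, was higher with the vector, as given above. In PAX6 KO BFP the endocrine sum was 18320 to 28850 CPM and in PDX1 KO BFP 55450 to 61520 CPM. The part of endocrine cells in the SLC24A4 levels was not tested. The 4 cardiac markers summed to 8.85 to 18.4 CPM in WT BFP, 53.8 to 259 in ISL1 KO BFP, 5.98 to 34.5 in PAX6 KO BFP and 14.9 to 30.0 in PDX1 KO BFP. Their part in the SLC8A1 levels was not tested.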

How the data were processed

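Gene and transcript tables deposited by the authors hold estimated counts and TPM per library and lane for GRCh38. Per the submitters' processing notes STAR 1.6.1 was used, and the sources used here do not name the counting program. SMART-Seq v4, the amplification chemistry per the labels' protocols, marks neither strand nor molecule. The deposited estimated counts of the 4 lanes were summed per library and rounded. A repeated identical column was used once, and 12 columns of 3 libraries listed under no sample were not used.

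All 21 libraries entered 1 edgeR (4.0.16) quasi-likelihood model with a mean per group, TMM scaling and the default filter (22184 genes kept). Benjamini-Hochberg adjusted p under 0.05, over all genes, counted as a call. CPM are TMM-scaled. The authors' deposited TPM, averaged over lanes, served for level per length and for a limma (3.58.1) fit on log2(TPM + 0.1). DESeq2 (1.42.0), other scalings and filters, fits without each library or without 2 libraries, and lanes 1 to 4 alone were alternatives, the last added after the data were seen. The fit was tested on simulated data. The genes named are the 9 exchangers, the neighbours of SLC24A4, the 5 genes most like it, and up to 3 called genes per list with the smallest adjusted p. The exchangers and all lists were chosen with earlier results of these data known.

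Replicate numbers stand in the column names. The fit with the replicate number as a block held terms for replicates 2 and 3 of ISL1 KO and of PAX6 KO. WT and PDX1 KO share too few numbers between the vectors and received no term. In that fit a difference of ISL1 KO or PAX6 KO from WT is taken at replicate 1. Same-numbered libraries of both vectors correlated in their deviations from the group means at 0.176, 0.382 and 0.346 in PAX6 KO and at 0.17, 0.0992 and 0.307 in ISL1 KO.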

Additional observations from a re-analysis of the deposited data

How the results depend on the processing

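No fold change of a named exchanger that passed a test changed direction under any alternative. The main counts of called exchangers were 1 for vector effects, 6 for knockouts with BFP, 1 for knockouts with ISL1 OE and 0 for differences between vector effects. Without the 2 libraries that stood apart they were 2, 11, 6 and 1, and the first 3 were 0, 0 and 0 on lanes 1 to 4 alone. Library size alone gave 0 vector effects and 0 knockouts with ISL1 OE. Only the groups compared gave 11 knockouts with BFP and 3 with ISL1 OE. DESeq2 gave 2 vector effects, 3 knockouts with ISL1 OE and 1 difference. The limma fit on TPM gave 2 vector effects, 2 knockouts with BFP and 0 with ISL1 OE. With the replicate number as a block 3 knockouts with BFP and 0 with ISL1 OE were called, and no other count moved. The block covered ISL1 KO and PAX6 KO alone and sets their replicate 1 level against WT, so these knockout counts do not test pairing. By the rule used (every pair's r over 0.1) the numbers pair the PAX6 KO libraries and not those of ISL1 KO, where each BFP library still correlated best with its own number. Leaving out 1 library at a time gave ranges of 0 to 3, 0 to 10, 0 to 5 and 0 to 9.

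The difference of SLC24A3 between PDX1 KO and WT with ISL1 OE, which passed no test in the main fit (0.38), was -0.38 in the TPM fit and ranged from -0.87, without PDX1 KO ISL1 OE replicate 2, to 1.07 over the fits that left out 1 library. SLC24A4 moved by 3.29 with the vector in ISL1 KO in the TPM fit, where the pseudocount limits low genes. Among pump and channel genes, the vector effect of MCUR1 in PDX1 KO turned from 1.19 to -0.10 without the 2 libraries that stood apart, and ranged from -0.087 to 1.94 over the fits that left out 1 library, lowest without PDX1 KO ISL1 OE replicate 4. That of SLC9A4 ranged from -0.66 without replicate 2 of that group to 3.91 without replicate 4.

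Counts over all genes moved widely, and the cause was not tested. Vector effects ranged over the alternatives from 0 to 388 in WT (main 8), 4 to 1461 in ISL1 KO (94), 0 to 1384 in PAX6 KO (92) and 0 to 10860 in PDX1 KO (3200). Knockouts with BFP ranged from 75 to 6541 (1449), 27 to 6613 (1476) and 47 to 7655 (2529), and with ISL1 OE from 240 to 5650 (916), 36 to 3324 (946) and 0 to 8709 (173), for ISL1, PAX6 and PDX1 KO. With 2 or 3 libraries a group and 7 to 29 counts for SLC8A2 or SLC24A2 in WT, small differences of these genes were not detectable.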
